A study of Mus musculus with 18 samples.

Results

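Expression of 9 synaptic adhesion genes was examined in ventral dentate granule cells: the neurexins Nrxn2 and Nrxn3, the neuroligins Nlgn1, Nlgn2 and Nlgn3, and the leucine-rich repeat genes Lrrtm1, Lrrtm2, Lrrtm3 and Lrrtm4. The genes were taken by symbol from the 34620 genes of the RNA-Seq count tables, and all 9 had enough reads to be tested. All 9 are reported whatever their values, but the list was chosen with earlier results of these data known. The libraries were 2 from WT, 2 from F1 and 2 from F2 adult males of the outbred Swiss Webster strain, aged 8 to 12 weeks. WT males had WT mothers and grandmothers and came from a separate lineage bred in parallel. F1 males were genetically WT sons whose mothers carried 1 inactive allele of the serotonin 1A receptor gene (5HT1A-/+). F2 males were sons of F1 females and WT males, so that their mothers were WT and their grandmothers 5HT1A-/+. No library came from an animal lacking the receptor gene, and the breeding methods give heterozygous fathers for F1 as well. Maternal genotype, the genotype of the F1 fathers and breeding lineage cannot be told apart in this design. The granule cell layer was microdissected from frozen sections of brains perfused with RNAlater. The number of animals behind a library is not given in the sources used here, so p-values measure the spread between these libraries, which may be technical in part.

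Neurexins are presynaptic membrane proteins made from several promoters in many splice forms, and they reach across the synaptic cleft to bind partners on the postsynaptic cell. Neuroligins and Lrrtm proteins are such partners: Nlgn1 is found mainly at excitatory synapses, Nlgn2 at inhibitory synapses and Nlgn3 at both, while Lrrtm proteins help to hold AMPA receptors at excitatory synapses. Counts per gene add up all promoters and splice forms of a gene, so the alpha and beta neurexins and the alternatively spliced inserts were not resolved.

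The libraries held 26358165 to 33727936 reads assigned to genes. The normalised read count is given as CPM, the count divided by the TMM-scaled library size and expressed per megaread. Granule cell markers were all detected, with a summed level of 748 to 1053 CPM over 6 genes. Markers of oligodendrocytes (10 genes), astrocytes (7) and interneurons (8) were also present, and 0 genes of any marker list had no reads in all 6 libraries. In such tissue, fewer cells of a type and less RNA per cell cannot be told apart. Reads that matched no gene in the counting made up 17.7 and 20.7% of the uniquely placed reads in WT. They made up 13.8 and 12.2% in F1, and 13.9 and 17.4% in F2. The counting mode also places reads that lie only partly within an annotated exon among them.

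The members lie on 8 chromosomes (mm9 positions, GENCODE M1), and 3 of the 4 Lrrtm genes share a particular arrangement. Lrrtm1 (chromosome 6 from 77192683 to 77207785), Lrrtm2 and Lrrtm3 (chromosome 10 from 63391220 to 63553025) each lie within an alpha-catenin gene, Ctnna2, Ctnna1 and Ctnna3 respectively, on its opposite strand. Their exons share 0 bases with annotated exons of the host gene and so are intronic to it. Lrrtm4 (chromosome 6 from 79968871 to 80760137) has no such host. Whether the counting used strand is not given in the sources used here. Unspliced host RNA over the Lrrtm exons could then not be told apart from Lrrtm reads. The genes differ widely in extent. Nrxn3 spans 1610 kb on chromosome 12, Nlgn1 702 kb on chromosome 3, and Nlgn2 14.7 kb on chromosome 11. Nrxn2 is on chromosome 19 from 6418731 to 6544169 and Nlgn3 on chromosome X from 98491178 to 98521302. Exons of 3 members overlap exons of other annotated genes: 1005 of 13816 exonic bases in Nrxn2, 749 of 11008 in Nlgn3 (with Med12) and 1543 of 6147 in Lrrtm4. The counting mode drops a read that lies wholly in such an overlap, so these genes may be undercounted.

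RefSeq promoter windows, from 250 bases before to 50 bases after a start site on GRCm38.p6, were matched by symbol for 6 of the 9 members, and no window was matched for Nrxn2, Nlgn3 and Lrrtm2. The windows of the 2 members with the highest levels, Nlgn2 and Lrrtm1, and the upstream window of Nlgn1 are shown because they differ strongly in composition. Capitals mark matches to the GC box, GGGCGG on either strand, the letters bound by Sp1-type factors.
Nlgn2 promoter, chr11:69837735-69838034, minus strand: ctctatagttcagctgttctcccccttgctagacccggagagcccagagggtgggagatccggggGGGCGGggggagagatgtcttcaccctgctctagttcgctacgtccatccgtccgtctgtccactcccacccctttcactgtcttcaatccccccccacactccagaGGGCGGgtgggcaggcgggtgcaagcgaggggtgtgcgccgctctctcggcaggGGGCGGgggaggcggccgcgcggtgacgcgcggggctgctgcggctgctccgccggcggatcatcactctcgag
Lrrtm1 promoter, chr6:77242227-77242526, plus strand: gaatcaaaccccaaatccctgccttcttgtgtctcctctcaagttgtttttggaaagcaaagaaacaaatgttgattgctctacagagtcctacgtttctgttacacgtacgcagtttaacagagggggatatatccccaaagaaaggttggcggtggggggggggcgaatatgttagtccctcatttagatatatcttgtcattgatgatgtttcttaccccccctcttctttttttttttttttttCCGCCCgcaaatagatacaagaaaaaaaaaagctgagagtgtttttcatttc
Nlgn1 promoter, chr3:26331860-26332159, minus strand: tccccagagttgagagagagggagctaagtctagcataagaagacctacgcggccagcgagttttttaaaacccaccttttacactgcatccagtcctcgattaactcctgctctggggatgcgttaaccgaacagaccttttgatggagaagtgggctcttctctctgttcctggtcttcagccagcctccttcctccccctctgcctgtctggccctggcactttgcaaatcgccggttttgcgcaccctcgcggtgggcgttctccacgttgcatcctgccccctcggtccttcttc
The Nlgn2 window had a GC content of 68.7% with 26 CpG dinucleotides and 3 GC boxes, whereas the Lrrtm1 window had 40.7%, 7 CpGs and 1 GC box. The Nlgn1 window had 55.7%, 14 CpGs and 0 GC boxes. Over all 32851 windows, the median GC content was 52.7% and the median CpG count 7, and 35.7% held at least 1 GC box. The sequence TATAAA was found in 1 of the 10 member windows, at the upstream start of Lrrtm4, against 13.6% of all windows. Such matches describe letters only and are not evidence of binding.

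Levels of different genes were compared per length, as CPM per kb of annotated exon. Nlgn2 and Lrrtm1 were the most abundant members, at 46.8 and 45.1 CPM per kb over the 6 libraries. Their ranges, 42.1 to 51.2 and 40.1 to 49.3, overlapped, so their order was not resolved. Nrxn2 followed at 18.5 CPM per kb, and the lowest Lrrtm1 library lay above the highest Nrxn2 library (21.2). Nlgn3 (16.3), Nlgn1 (15.2), Lrrtm2 (12.8) and Nrxn3 (12.3) followed Nrxn2, each overlapping its neighbours in the order. Lrrtm4 at 8.97 CPM per kb (8.31 to 10.6) lay below every Nrxn3 library, and Lrrtm3 at 4.89 (4.21 to 6.32) lay below every Lrrtm4 library. The members thus spanned a 9.56-fold range of levels. Length was the union of all annotated exons of a gene. It exceeds the length of any single transcript where a gene has many forms, as do Nrxn2 with 16 and Nrxn3 with 14 annotated transcripts.

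**Figure D1:**
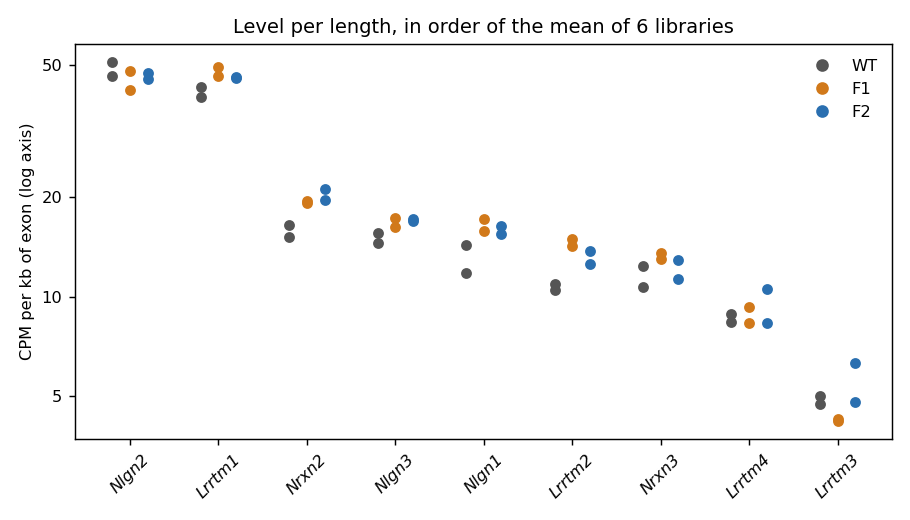
Level of each member in CPM per kb of exon on a log axis, with 1 point per library and the groups in colour (WT grey, F1 orange, F2 blue). Nlgn2 and Lrrtm1 lie between 40.1 and 51.2 in all libraries, above all other members, and Lrrtm3 is lowest in every library.

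The first comparison asked whether these genes differed in F1 or F2 males, whose mothers or grandmothers carried the receptor deficiency. In F1, 1 of the 9 genes, Lrrtm2, differed from WT at an adjusted p under 0.01 by edgeR's exact test, with higher expression. This threshold called 12.3% of all 17421 tested genes, 3.77% higher and 8.54% lower. In F2, 0 of the 9 genes passed, where 12% of all genes did, 3.86% higher and 8.1% lower. By the exact test, 3 members had an unadjusted p under 0.05 in F2 (Nrxn2, Nlgn1 and Lrrtm2), and the same 3 had it in F1. The share of all genes at an unadjusted p under 0.05 was not computed, here or for the lists below. For the exact test it cannot be below the 20.8% (F1) and 20.7% (F2) at an adjusted p under 0.05. Such counts therefore do not set the genes apart from the background. DESeq2 called 1 member in F1, Lrrtm2, and 1 in F2, Nrxn2. The quasi-likelihood test of edgeR called 0 in F1 and 0 in F2, with 4 and 3 at an unadjusted p under 0.05. These tools called 10.5 and 10.5% (DESeq2) and 5.91 and 5.72% (quasi-likelihood) of all genes. By the exact test, thus, 0 members were called in both F1 and F2, against 7.67% of all genes. That share is made up of 1.6% of all genes higher in both and 6.07% of all genes lower in both. At an adjusted p under 0.05, Nlgn1 and Lrrtm2 passed in F1, where 20.8% of all genes did (8.08% higher), and Nrxn2 passed in F2, where 20.7% did (8.21% higher). With a correction for GC content and length, fitted by a likelihood-ratio test, 3 members were called in F1 (Nrxn2, Nlgn1 and Lrrtm2) and 2 in F2 (Nrxn2 and Lrrtm2), where 16 and 15.2% of all genes were called. Of those calls 47.9 and 44.1% were higher, against 31.6 and 33.1% in the likelihood-ratio test without the correction, which called 1 member in F1 (Lrrtm2) and 1 in F2 (Nrxn2). The F1 and F2 comparisons share the WT libraries and are not independent.

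**Figure D2:**
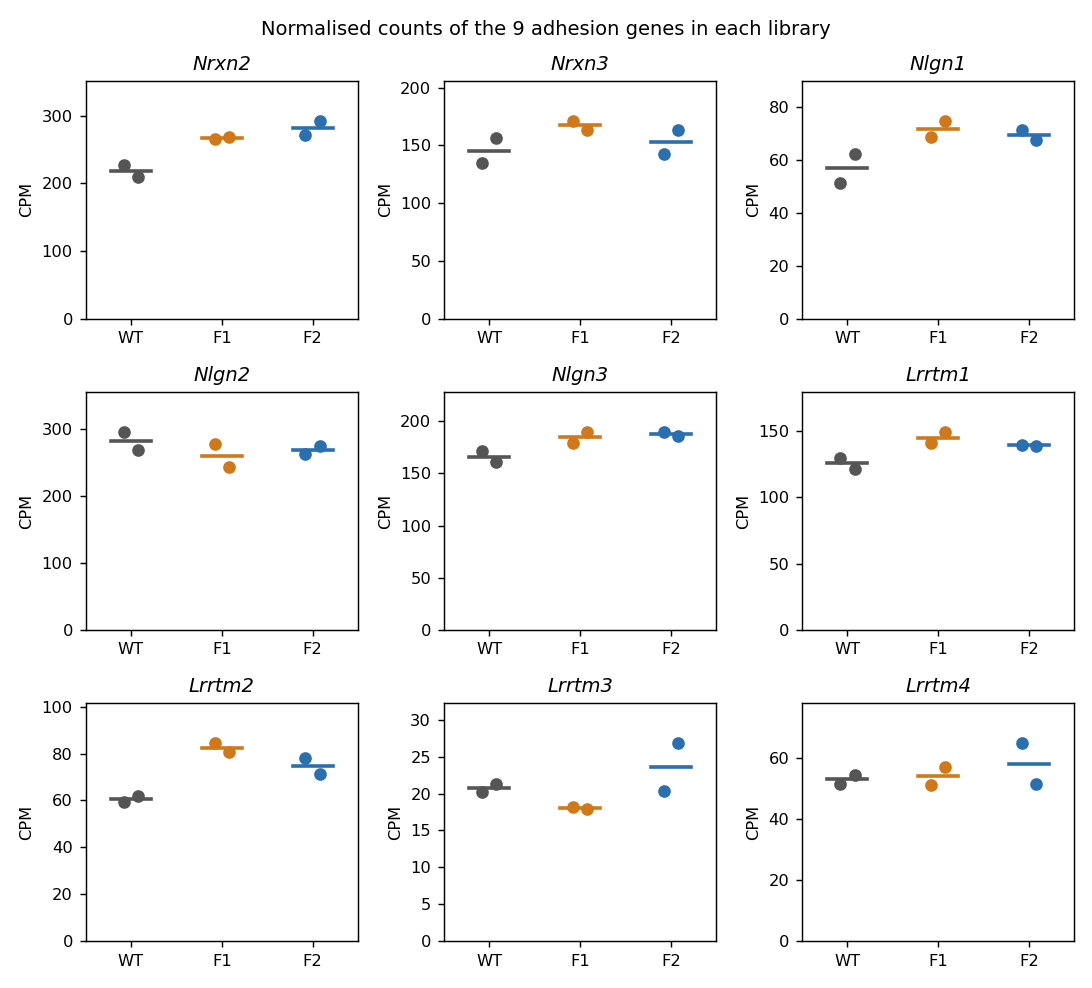
CPM of each member in the 2 libraries of WT, F1 and F2 (points) with the group mean (horizontal lines), each panel with its own axis from 0. All F1 and F2 points lie above both WT points for Nrxn2, Nlgn1, Nlgn3, Lrrtm1 and Lrrtm2, and the groups overlap for Nlgn2 and Lrrtm4.

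Among the neurexins, Nrxn2 had 227 and 209 CPM in the WT libraries, 265 and 268 CPM in F1, and 272 and 292 CPM in F2, with means of 218 ± 12.4, 267 ± 2.00 and 282 ± 14.7 CPM (SD, n = 2). All 4 F1 and F2 libraries lay above both WT libraries. The log2 fold change was 0.29 in F1 (95% interval 0.064 to 0.52, adjusted p = 0.0551 by edgeR's exact test) and 0.37 in F2 (0.14 to 0.60, adjusted p = 0.0110 by the same edgeR test), so that Nrxn2 missed the threshold narrowly in F2. This call depended on the test and scaling, and the adjusted p in F2 ranged from 7.6e-06 to 0.147 over the alternatives. Nrxn3 had 135 and 156 CPM in WT, 172 and 164 CPM in F1, and 143 and 163 CPM in F2. The F1 libraries lay above WT and the F2 libraries overlapped it. Its log2 fold changes of 0.20 and 0.07 did not pass the test (adjusted p = 0.253 and 0.740 by edgeR's exact test), and the intervals reached 0.45 in F1 and 0.32 in F2. Without WT replicate 1 the F1 value was 0.10, and without WT replicate 2 it was 0.33.

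By edgeR's exact test 0 of the 3 neuroligins passed in F1 or F2, with 1, Nlgn1, at an unadjusted p under 0.05 in each, and the quasi-likelihood test and DESeq2 also called 0. Nlgn1, the excitatory neuroligin, had 51.4 and 62.4 CPM in WT, 68.8 and 74.9 CPM in F1, and 71.4 and 67.7 CPM in F2, with means of 56.9 ± 7.79, 71.8 ± 4.32 and 69.5 ± 2.64 CPM (SD, n = 2). The 4 libraries again lay above both WT libraries, although the WT libraries themselves differed by more than the F1 or the F2 pair. Its log2 fold change was 0.34 in F1 (interval 0.085 to 0.59, adjusted p = 0.0454 by edgeR's exact test) and 0.29 in F2 (0.038 to 0.54, adjusted p = 0.0943 by edgeR's exact test). Without WT replicate 2 the values were 0.49 in F1 and 0.45 in F2, and without WT replicate 1 they were 0.21 and 0.16. Nlgn2, the inhibitory neuroligin, had 296 and 268 CPM in WT, 278 and 243 CPM in F1, and 263 and 275 CPM in F2, and its groups overlapped. Its log2 fold changes were -0.12 and -0.07 (adjusted p = 0.545 and 0.740 by edgeR's exact test). The intervals, -0.35 to 0.12 in F1 and -0.31 to 0.17 in F2, show the size of change that these libraries could not resolve. Nlgn3 had 171 and 160 CPM in WT, 179 and 190 CPM in F1, and 189 and 186 CPM in F2. Its log2 fold changes were 0.15 and 0.18, with adjusted p = 0.357 and 0.282 by edgeR's exact test.

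Because a share within a family does not depend on the scaling between libraries, the makeup of the neuroligin counts was also computed. Nlgn2 made up 57.1 and 54.6% of the neuroligin reads in WT, 52.8 and 47.9% in F1, and 50.2 and 52.0% in F2. Its share was thus below both WT values in all 4 F1 and F2 libraries, while its CPM overlapped WT. The same order in CPM held in 23.7% of all tested genes, and no such background was computed for shares. Nlgn1 made up 9.89 and 12.7% in WT, 13.1 and 14.7% in F1, and 13.6 and 12.8% in F2. The second WT library was close to the second F2 library, at a 95% counting error (Wilson interval) of at most 0.828 points. Nlgn3 made up the rest, 33.0 and 32.7% in WT and 34.1 to 37.4% in F1 and F2. These shares were examined after the levels were seen and were not tested. The intervals cover counting error only.

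**Figure D3:**
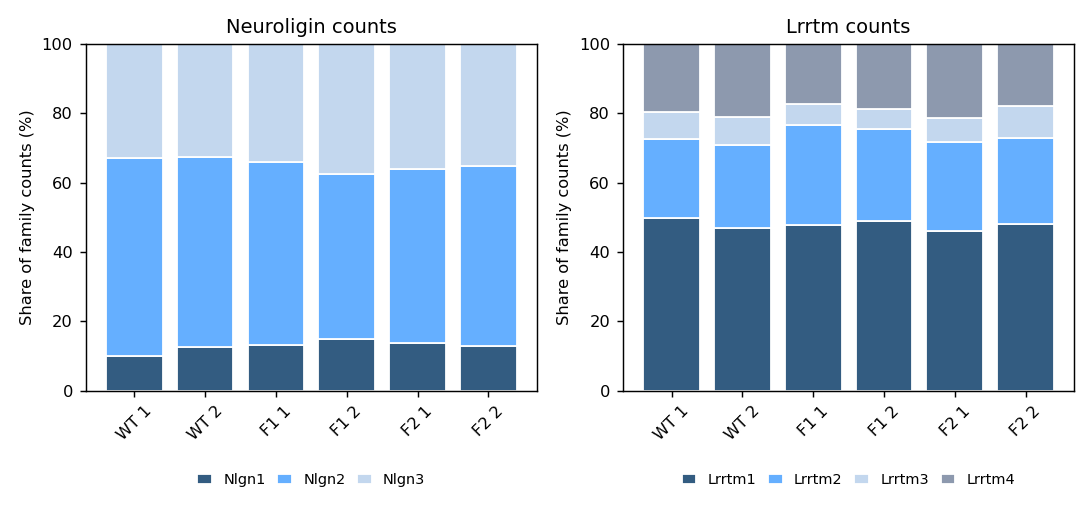
Share of each gene in the summed neuroligin reads (left) and Lrrtm reads (right), in percent, for each of the 6 libraries. The Nlgn2 share is 54.6% or more in the WT libraries and 52.8% or less in the other libraries, and the Lrrtm2 share is highest in the F1 libraries, at 28.7 and 26.4%.

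Lrrtm2 (mm9 chromosome 18 from 35368665 to 35374678), a ligand of neurexins at excitatory synapses, had the smallest adjusted p of the 9 genes in F1. It had 59.2 and 62.1 CPM in WT, 84.6 and 80.7 CPM in F1, and 78.1 and 71.2 CPM in F2. The means were 60.6 ± 2.01, 82.6 ± 2.78 and 74.7 ± 4.82 CPM (SD, n = 2). The libraries of a group were close together and all F1 and F2 libraries lay above WT. It rose 1.36-fold in F1 (interval 1.16 to 1.598, log2 fold change 0.45, standard error 0.12, adjusted p = 0.00175 by edgeR's exact test). In F2 the level was 1.23-fold that of WT (interval 1.05 to 1.44, log2 fold change 0.30), with adjusted p = 0.0508 by edgeR's exact test. F2 and F1 were not shown to differ in Lrrtm2 (log2 fold change -0.15, interval -0.37 to 0.08, adjusted p = 0.874 by edgeR's exact test). In F1 the adjusted p was 0.0116 in the quasi-likelihood test and 0.00183 in DESeq2's Wald test. It was 0.0491 without WT replicate 1, 0.0126 without WT replicate 2 and 0.0172 without F1 replicate 1 by the exact test in edgeR. The log2 fold change stayed between 0.42 and 0.53 over all 18 alternatives. In the Lrrtm family, Lrrtm2 made up 22.7 and 23.9% of reads in WT, 28.7 and 26.4% in F1, and 25.8 and 24.7% in F2, with a counting error of at most 1.14 points.

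The other Lrrtm genes did not pass the test in either generation. Lrrtm1 had 130 and 121 CPM in WT, 141 and 150 CPM in F1, and 140 and 139 CPM in F2. Its log2 fold changes were 0.21 and 0.15 (adjusted p = 0.197 and 0.402 by edgeR's exact test). Its F1 and F2 libraries all lay above WT by a small margin. Lrrtm3, the least abundant member, had 20.2 and 21.3 CPM in WT, 18.1 and 17.9 CPM in F1, and 20.4 and 26.9 CPM in F2. Both F1 libraries lay below WT, while 1 F2 library lay within the WT range and the other above it. Its log2 fold changes were -0.20 and 0.19 (adjusted p = 0.422 and 0.463 by edgeR's exact test). Lrrtm4, whose protein binds heparan sulfate proteoglycans, had 51.5 and 54.6 CPM in WT, 51.1 and 57.2 CPM in F1, and 64.98 and 51.4 CPM in F2. These groups overlapped, and the log2 fold changes were 0.03 and 0.13 (adjusted p = 0.926 and 0.550 by edgeR's exact test).

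**Figure D4:**
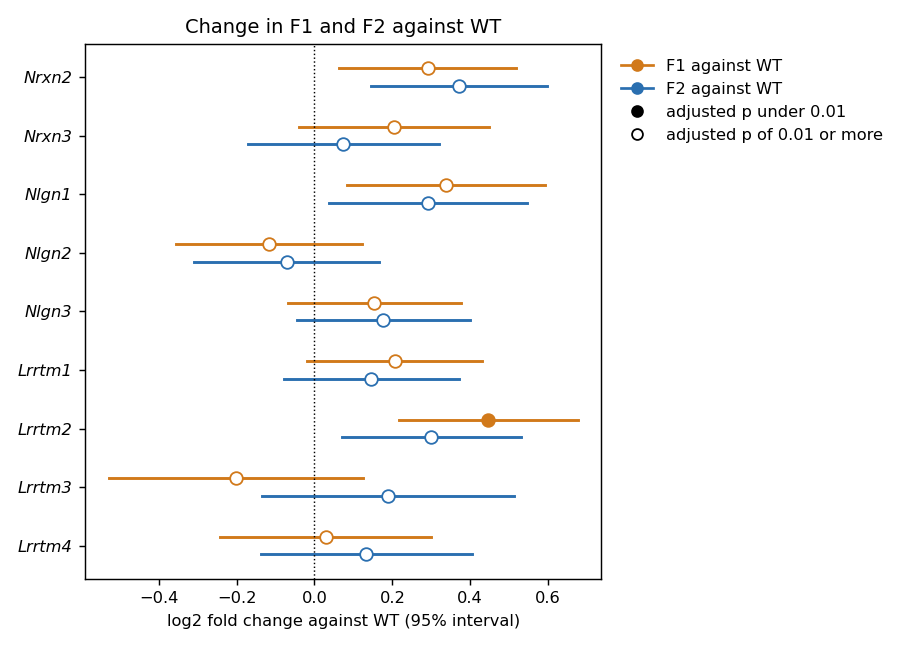
Log2 fold change against WT with its 95% interval for each member in F1 (orange) and F2 (blue), with a filled point where the adjusted p of edgeR's exact test was under 0.01. The only filled point is Lrrtm2 in F1 at 0.45, and the intervals of Nrxn2, Nlgn1 and Lrrtm2 lie above 0 in both generations.

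Across the 9 members, 7 had a positive log2 fold change in F1 and 8 in F2, with medians of 0.20 and 0.18, where the medians of all tested genes were 0.0094 and -0.00035. Over all genes, 50.9% were above 0 in F1 and 50% in F2. In 5 members, Nrxn2, Nlgn1, Nlgn3, Lrrtm1 and Lrrtm2, the 4 F1 and F2 libraries lay above both WT libraries, as they did in 21% of all tested genes, and in 0 members did they all lie below, against 23.7% of all genes. Taken by generation, both F1 libraries lay above both WT libraries in 6 members (29.8% of all genes) and below them in 1, Lrrtm3 (30.6%), and both F2 libraries lay above in 5 (31%) and below in 0 (32%).

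The second comparison asked whether F2 differed from F1, a contrast without the shared WT libraries. By edgeR's exact test 0 of the 9 members passed, where 0.74% of all genes did, 0.304% higher and 0.436% lower. At 0.05 it was also 0, against 1.32% (0.505% higher). The log2 fold change was above 0 in 5 members and in 49.8% of all genes. The quasi-likelihood test and DESeq2 also called 0. Lrrtm3 was the member with an unadjusted p under 0.05: it was 1.31-fold higher in F2 than in F1 (interval 1.05 to 1.64, unadjusted p = 0.0185 and adjusted p = 0.379 by edgeR's exact test), and 1 F2 library carried much of this. For the other 8 members the log2 fold change lay between -0.15 and 0.10, and their intervals reached at most -0.38 and 0.37.

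The alpha-catenin hosts of the nested Lrrtm genes encode links between cadherins and actin. Ctnna1, the host of Lrrtm2, had 38.9 and 44.8 CPM in WT, 46.7 and 49.2 CPM in F1, and 51.6 and 51.9 CPM in F2. The log2 fold changes were 0.20 and 0.31 (adjusted p = 0.276 and 0.0665 by edgeR's exact test). In Ctnna2, the host of Lrrtm1, they were 0.27 and 0.16, and neither passed. Ctnna3 had at most 1.23 CPM in any library. By the exact test 0 of the 3 hosts were called in F1 or F2, with 1 at an unadjusted p under 0.05 in each, and 0 by the quasi-likelihood test or DESeq2. Host and nested gene were not compared by a test.

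Glial markers moved in the same libraries. Of 10 oligodendrocyte markers, 4 rose in F1 and 2 in F2 by the exact test. Of all genes 12.3 and 12% were called, 3.77 and 3.86% as higher. The quasi-likelihood test and DESeq2 called 0 of these 10 markers in F1 and in F2. Their summed level was 1136 and 2062 CPM in WT, 3103 and 2328 CPM in F1, and 1604 and 3013 CPM in F2. Of 7 astrocyte markers, 1 rose in F1 and 4 in F2 by the exact test, with sums of 1251 to 1306 CPM in WT and 1492 to 2035 CPM in F1 and F2. For these the quasi-likelihood test called 0 in F1 and 1 in F2, and DESeq2 called 2 and 4. Of 7 microglia markers, 5 rose in F2 and 0 in F1 by the exact test. In F1 4 had an unadjusted p under 0.05 by that test, and edgeR's quasi-likelihood test and DESeq2 called 0. In F2 the quasi-likelihood test called 0 and DESeq2 called 4. Interneuron markers summed to 650 and 719 CPM in WT, 876 and 633 CPM in F1, and 726 and 809 CPM in F2. Of these 8 markers 1 was called in F1 (Slc32a1, higher) and 2 in F2 (Gad2 and Slc32a1, higher), the list medians were 0.07 and 0.20, and 3 of the 8 were below 0 in F2. Granule cell markers summed to 882 to 891 CPM in WT, 748 and 890 CPM in F1, and 986 and 1053 CPM in F2. Of these 6 markers the exact test called 1 in F1 and 1 in F2, in both cases Plk5, lower. In F1 5 of them were below 0 and in F2 1 was, with list medians of -0.19 and 0.16. Of 5 endothelial markers the exact test called 0 in F1 and 1 in F2 (higher), with list medians of 0.44 and 0.64. Of 4 oligodendrocyte precursor markers 1, Pdgfra, was called higher in F1 and in F2. Of 9 markers of mossy cells and CA fields, 2 were called in each generation. Csf2rb2 was lower in both, Cpne4 higher in F1 and Pou3f1 higher in F2. The part of these cell types in the Lrrtm2 difference was not tested.

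The remaining partners of these genes were taken as lists by function. Of 11 other neurexin ligands, 2 rose in F1 and 2 in F2 by the exact test, in both cases Nxph1 and Dag1. This was 18.2% in each, where 12.3 and 12% of all genes were called, 3.77 and 3.86% as higher. The quasi-likelihood test called 0 of the 11 in F1 and 1 in F2, and DESeq2 called 1 and 2. The list medians were 0.35 and 0.52. Nxph1, a secreted neurexophilin that binds alpha-neurexins, had 17.3 and 19.1 CPM in WT, 27.0 and 25.1 CPM in F1, and 25.9 and 28.4 CPM in F2, and its log2 fold changes were 0.52 (adjusted p = 0.00441 by edgeR's exact test) and 0.58 (adjusted p = 0.00123 by edgeR's exact test). Dag1, the dystroglycan gene, had 24.1 and 20.9 CPM in WT, 31.1 and 59.0 CPM in F1, and 54.4 and 42.3 CPM in F2. The F1 libraries of Dag1 stood far apart, and the log2 fold changes were 1.00 (adjusted p = 0.000413 by edgeR's exact test) and 1.10 (adjusted p = 8.49e-05 by edgeR's exact test).

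Inhibitors and sheddases of neuroligins and neurexins numbered 8 genes, with 0 called in F1 and 2 in F2 by the exact test. This was 0 and 25%, against 12.3 and 12% of all genes. By the exact test 3 had an unadjusted p under 0.05 in F1, and the quasi-likelihood test and DESeq2 called 0 there. In F2 the quasi-likelihood test called 0 and DESeq2 called 2. The Mdga genes encode proteins that block neuroligins from binding neurexins, and in F2 they went in opposite directions. Mdga1 fell by 0.65 on the log2 scale (adjusted p = 0.000263 by edgeR's exact test) and Mdga2 rose by 0.60 (adjusted p = 0.00640 by edgeR's exact test). Mdga1 had 71.8 and 62.9 CPM in WT and 36.6 and 49.4 CPM in F2, whereas Mdga2 had 9.30 and 10.6 CPM in WT and 15.9 and 14.1 CPM in F2. Among 10 regulators of neurexin splicing, 1 fell in F1, Ptbp1, and 0 were called in F2, where 2 had an unadjusted p under 0.05 by the exact test. The quasi-likelihood test and DESeq2 called 0 in F1 as well as in F2. Nxph1, Dag1, Odz3 and Dlg2 are named because the exact test called them in both generations. All other partner genes were named after their values were seen.

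The scaffolds bind the tails of the adhesion proteins inside the cell. Of 16 postsynaptic scaffold genes, 2 rose in F1 (Dlg2 and Dlgap3) and 1 in F2 (Dlg2), or 12.5 and 6.25%. Of all genes 3.77 and 3.86% were called higher, and 12.3 and 12% in either direction. The list medians were 0.16 and 0.16. Dlg2, which encodes the scaffold PSD-93, had 71.5 and 81.5 CPM in WT, 107 and 146 CPM in F1, and 144 and 125 CPM in F2. Its log2 fold changes were 0.73 (adjusted p = 5.5e-05 by edgeR's exact test) and 0.82 (adjusted p = 4.52e-06 by edgeR's exact test). Of 14 presynaptic scaffold genes, Ppfia1 fell in F1, and in F2 Apba1 rose and Lin7b fell, which makes 7.14 and 14.3%. In the other adhesion systems, 1 of 18 genes for receptor phosphatases and their partners was called in each generation, Ntrk3 lower in F1 and Ptprs lower in F2. Of 14 netrin-G, latrophilin, Flrt and teneurin genes, Odz3 rose and Ntng2 fell in F1, and Odz1, Odz3 and Lphn3 rose in F2. Odz3, now called teneurin-3, went from 18.3 and 18.1 CPM in WT to 24.7 and 32.9 CPM in F1 and 36.3 and 37.0 CPM in F2, a 1.58-fold rise (adjusted p = 0.000611 by edgeR's exact test) and a 2.01-fold rise (adjusted p = 2.29e-08 by edgeR's exact test). Of 8 SynCAM and similar genes, Cadm3 rose in F1 and Ncam2 in F2. Across these 8 lists the share called ran from 0 to 18.2% for F1 and from 0 to 25% for F2, and over all 99 genes it was 10.1 and 12.1%, against 12.3 and 12% of all tested genes. The quasi-likelihood test called 3 and 4 of the 99 genes and DESeq2 called 9 and 12.

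**Figure D5:**
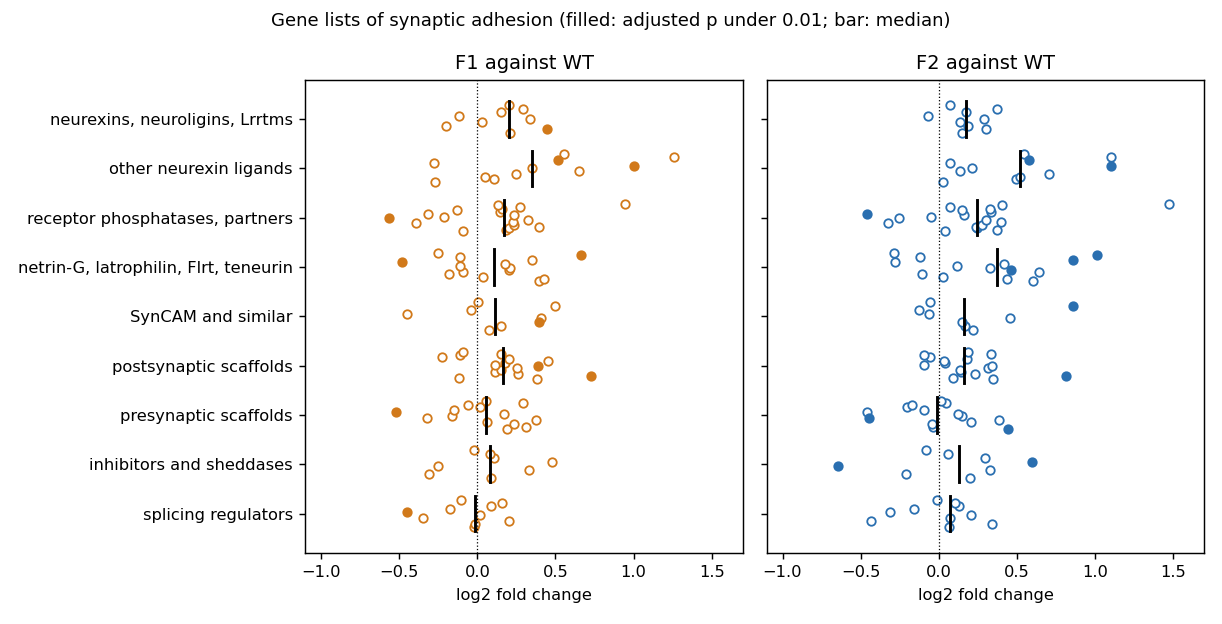
Log2 fold change against WT of each tested gene in 9 lists for F1 (left, orange) and F2 (right, blue), with filled points for an adjusted p under 0.01 and a black bar at the list median. The 9 neurexin, neuroligin and Lrrtm genes run from -0.20 to 0.45 for F1 and from -0.07 to 0.37 for F2, a narrower spread than that of the other neurexin ligands.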

How the data were processed

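The 6 RNA-Seq libraries (WT, F1 and F2) were grouped and numbered by the GEO labels, and the 12 bisulfite sequencing samples were not analysed here. The authors aligned single-end reads to mm9 with TopHat and deposited raw read counts per gene from HTSeq (intersection-strict), without normalization. Lines of the tables that name no gene were left out. Genes were filtered with filterByExpr, TMM factors were used, and groups were compared by the exact test in edgeR 4.0.16 (R 4.3.3). Tagwise dispersions came from all 6 libraries, and Benjamini-Hochberg adjustment ran over 17421 genes. The threshold of 0.01 is that of the study's results. Its methods name edgeR but not the test. Standard errors follow from mean counts and dispersion, and 95% intervals are approximate. On simulated counts with 200 genes changed by 1 on the log2 scale in F1, the exact test recovered 99%, with 3.41% of calls false. All genes were drawn at the common dispersion, and the changed genes were taken from the better counted ones. These figures therefore do not hold for smaller changes, such as those of the members, or for genes with other dispersions. The members and lists were chosen with earlier results of these data known. All 9 members are named, and from other lists up to 4 genes called in both generations. Replicates were not duplicates: their chi-square per degree of freedom was 18.5 to 23.0. Exon lengths and GC content came from GENCODE M1, which matched 33294 of 34620 symbols. Alternatives were other tests and tools (DESeq2 1.42.0), normalizations, filters, dispersions, thresholds and left-out libraries, and a correction for GC content and length.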

Additional observations from a re-analysis of the deposited data

How the results depend on the processing

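Each group held 2 libraries, and neither their number nor their depth was varied beyond leaving 1 out. At a threshold of 0.05 the exact test called 2 members in F1 (Nlgn1 and Lrrtm2) and 1 in F2 (Nrxn2). In F1, the quasi-likelihood test called 0 members without a block and 0 with the replicate block. In F2, Nrxn2 made the count 1 under DESeq2's Wald test, upper quartile normalization, dispersion from the 2 groups compared, and a likelihood-ratio test without block. The last was chosen after seeing the data. The correction for GC content and length, fitted with the likelihood-ratio test, called 3 in F1 (Nrxn2, Nlgn1 and Lrrtm2), 2 in F2 (Nrxn2 and Lrrtm2) and 2 in both, beside 2767, 2618 and 1701 of all genes. The uncorrected likelihood-ratio test called 2253, 2211 and 1415 of all genes, of which 31.6% (F1) and 33.1% (F2) were higher, against 47.9 and 44.1% with the correction and 30.6 and 32.3% in the exact test. Between F2 and F1 the count was 0 under every alternative run. With a library left out, the F1 count was 0 to 1 and the F2 count 0 to 1. Lrrtm2 was lost in F1 without WT replicate 1, WT replicate 2 or F1 replicate 1, and Nrxn2 was gained in F2 without either F1 library.

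Reversals of direction occurred only with a library left out and only in values that did not pass the test. The log2 fold change in F2 ranged from -0.025 to 0.19 in Nrxn3, from -0.13 to 0.0075 in Nlgn2, from -0.017 to 0.38 in Lrrtm3 and from -0.040 to 0.30 in Lrrtm4, and in F1 from -0.046 to 0.12 in Lrrtm4. The replicate numbers did not pair the libraries: differences between replicates 1 and 2 had correlations across genes of -0.0056 (WT and F1), -0.094 (WT and F2) and -0.26 (F1 and F2). A likelihood-ratio test with the replicate block gave 1743 genes in F1 and 1758 in F2, and 1 and 0 members. With the F2 numbers crossed, a fit added after seeing the data, it gave 2679 and 2752 genes, and 1 and 1 members. Of all genes, the exact test called 2144 in F1 and 2084 in F2, the quasi-likelihood test 1029 and 997 (848 and 758 with the replicate block), and with a library left out 988 to 2043 and 703 to 2585. Calls that were higher made up 20.02 and 21.5% of the quasi-likelihood calls. The causes of these differences were not tested.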
